A study of Mus musculus with 12 samples.

Results

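Potassium channel genes and the genes of the hyperpolarization-activated HCN channels were followed in cultured mouse entorhinal cortex (EC) neurons in which Dek had been silenced or overexpressed. They were chosen by name and level: of the 24100 genes in the table, 102 had a symbol that begins with Kcn or is that of an HCN channel, and the 75 with a mean of at least 1 CPM (the count scaled to library size) over the 12 libraries were kept. These 75 were 71 Kcn genes and 4 Hcn genes, of which 61 encode channel subunits that belong to the pore, 11 encode accessory proteins and 3 are non-coding transcripts named after a channel gene. Just inside the limit lay Kcnh5 at 1.21 CPM, Kcnd3os at 1.22 and Kcnrg at 1.23, and just outside it lay Kcng2 at 0.80, Kcnk6 at 0.74 and Kcnj14 at 0.42. The rule used no measure of change, though it was set with earlier results of these data known.

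The 4 groups had 3 wells each, all of neurons from C57BL/6J embryos at embryonic day 17 that were given an adeno-associated virus of serotype AAV1 at 7 days in vitro, at 1e+10 viral genomes per ml, and collected 4 days later. Dek-silenced wells received a hairpin against Dek (AAV1-mCherry-U6-mDEK-shRNA), and their control a scrambled hairpin (AAV1-mCherry-U6-scrmb-shRNA). Dek-overexpressing wells received the Dek cDNA (AAV1-hSyn1-mDEK-IRES-mCherry), and their control an empty vector (AAV1-hSyn1-mCherry-WPRE). All 4 viruses express mCherry, the U6 promoter drives the hairpins in any cell reached, and the hSyn1 promoter is mainly active in neurons. The study ran 1 hairpin against Dek in these cultures, so an effect of its sequence on other transcripts cannot be told apart from an effect of less Dek within that comparison. Wells may share a dissection, which the labels do not state, so the p-values measure the spread between these wells.

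Potassium channels let potassium leave the cell and so set the resting potential, end the action potential and space out repeated firing. Voltage-gated families (Kcna, Kcnb, Kcnc, Kcnd, Kcnh and Kcnq) open on depolarization, inward rectifiers (Kcnj) and tandem-pore channels (Kcnk) carry current near rest, and other families open with calcium (Kcnma, Kcnn) or sodium (Kcnt). HCN channels open on hyperpolarization, pass a mixed inward cation current and are prominent in stellate cells of the EC, where they shape resonance near the resting potential.

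Library totals lay between 15679567 and 18933382 estimated counts. Dek stood at 7.98, 6.65 and 8.62 CPM in Dek-silenced wells, against 35.3, 36.6 and 36.4 CPM in scrambled wells, and at 155.9, 128.8 and 143 CPM in overexpressing wells, against 36.0, 38.8 and 41.1 CPM in empty vector wells. The 9 neuron markers summed to between 5982 and 7693 CPM in every library, 8 astrocyte markers to between 424 and 834 CPM, and 6 microglial markers to at most 12.7 CPM, with P2ry12 and Itgam below 1 CPM in each well of all 4 groups. The hairpin groups and the vector groups also stood apart without regard to Dek: 4 Y-linked genes summed to 52.8 to 61.7 CPM in the 6 hairpin libraries and 92.3 to 111.7 CPM in the other 6. The first well of the silenced and of the scrambled group had the lowest astrocyte sum of its group (489 and 519 CPM, against 720.2 to 834 CPM in the other 4 hairpin wells).

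Levels were compared between genes as CPM per kb of annotated exon, which was possible for 73 of the 75. Kcnj4, a strong inward rectifier, had the highest level per length in every group, at 46.9 ± 2.28 in Dek-silenced wells, 67.5 ± 2.31 in scrambled wells, 46.9 ± 3.67 in overexpressing wells and 53.0 ± 3.19 in empty vector wells (CPM per kb, mean ± SD, n = 3). Hcn2 came next in every group, and its wells did not overlap with those of Kcnj4. Behind them, Kcnj3, a subunit of G protein-gated (GIRK) channels, Kcnab2, an accessory subunit of Kcna channels, the A-type channel gene Kcnd2 and Kcna6, a delayed rectifier of the Kcna family, completed the 6 highest when all 12 libraries were averaged. Their order was less settled: in empty vector wells Hcn2 and Kcnj3 overlapped, and so did Kcnd2 with Kcna1, Kcna1 with Kcna6 and Kcna6 with Kcnab2. In Dek-silenced wells the third to the sixth were Hcn3, Kcnj3, Kcnf1 and Kcnab2, whose neighbours overlapped, and Kcna1 and Kcna6 were not among the first 10.

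**Figure D1:**
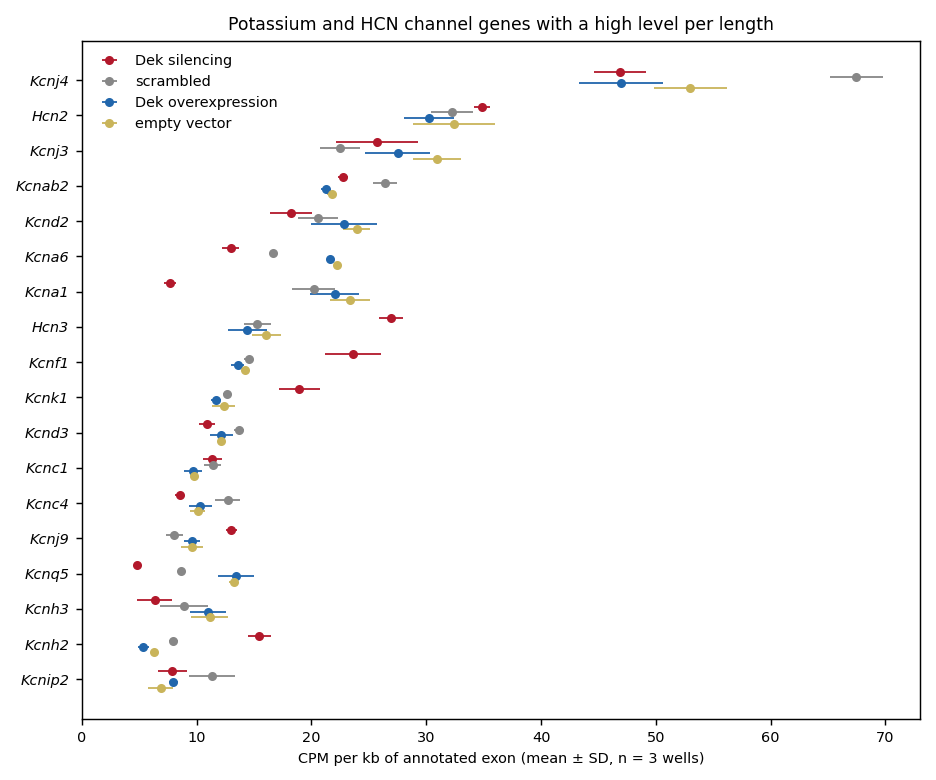
Level per length (CPM per kb of annotated exon, mean with SD as error bars, n = 3 wells) of 18 channel genes that were high over all libraries, with 1 colour per group. Kcnj4 and Hcn2 lead in all groups, Hcn3 and Kcnf1 are highest in Dek-silenced wells, and Kcna1 and Kcna6 are lowest there.

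The comparison of Dek-silenced with scrambled wells asked which channel genes change when Dek is reduced. Of the 75 genes, 19 rose and 23 fell (edgeR quasi-likelihood test, adjusted p < 0.05 over all genes), with a median log2 fold change (log2FC) of −0.10 against −0.0011 over all genes. Called genes made up 56.0% of the channel genes and 54.7% of the 14232 genes tested, so the share that changed was near that of the transcriptome. Rises came to 25.3% of the channel genes, against 26.2% of all genes tested, and falls to 30.7%, against 28.5%. Scaling by library size alone, which put the median log2FC of all genes at 0.0976, gave 24 rises and 20 falls, and moved the share of rises among all called genes to 59.9%, against 47.9% with TMM scaling. The wells of the groups did not overlap in 45 genes, 20 above and 25 below, 60% of the channel genes beside 61.9% of all genes. Changes ran both ways in several families: the Kcna, Kcnd and Kcnip families held falls and no rises, the Kcnn family rises and no falls, and the Kcnh, Kcnj, Kcnk and Kcnab families held both. In bulk RNA, fewer cells of a type and less RNA per cell cannot be told apart. The neuron markers summed to 5982 to 6611 CPM in silenced wells, against 7026 to 7263 CPM in scrambled wells. The 5 oligodendrocyte markers summed to 82.4 to 89.8 CPM, against 30.8 to 41.2 CPM in scrambled wells. Single markers did not all move with their sum. Of the 9 neuron markers 5 fell, 1 (Rbfox3) rose and the rest did not pass. Of the 5 oligodendrocyte markers 4 rose and 1 (Mog) fell. The part of cell types in these counts was not tested. With the replicate number as a block, 22 rose and 27 fell, while over all 14232 genes tested 4208 rose and 4412 fell. The labels state no pairing of wells, so the block is an alternative and not a known design. The 7 genes added were Kcne1l (log2FC = 0.83), Kcnh7 (0.29), Kcnj3 (0.17), Kcnd2 (−0.19), Kcnt1 (−0.33), Kcnh3 (−0.50) and Kcnh8 (−0.77), with adjusted p between 6.46e-06 and 0.0382.

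**Figure D2:**
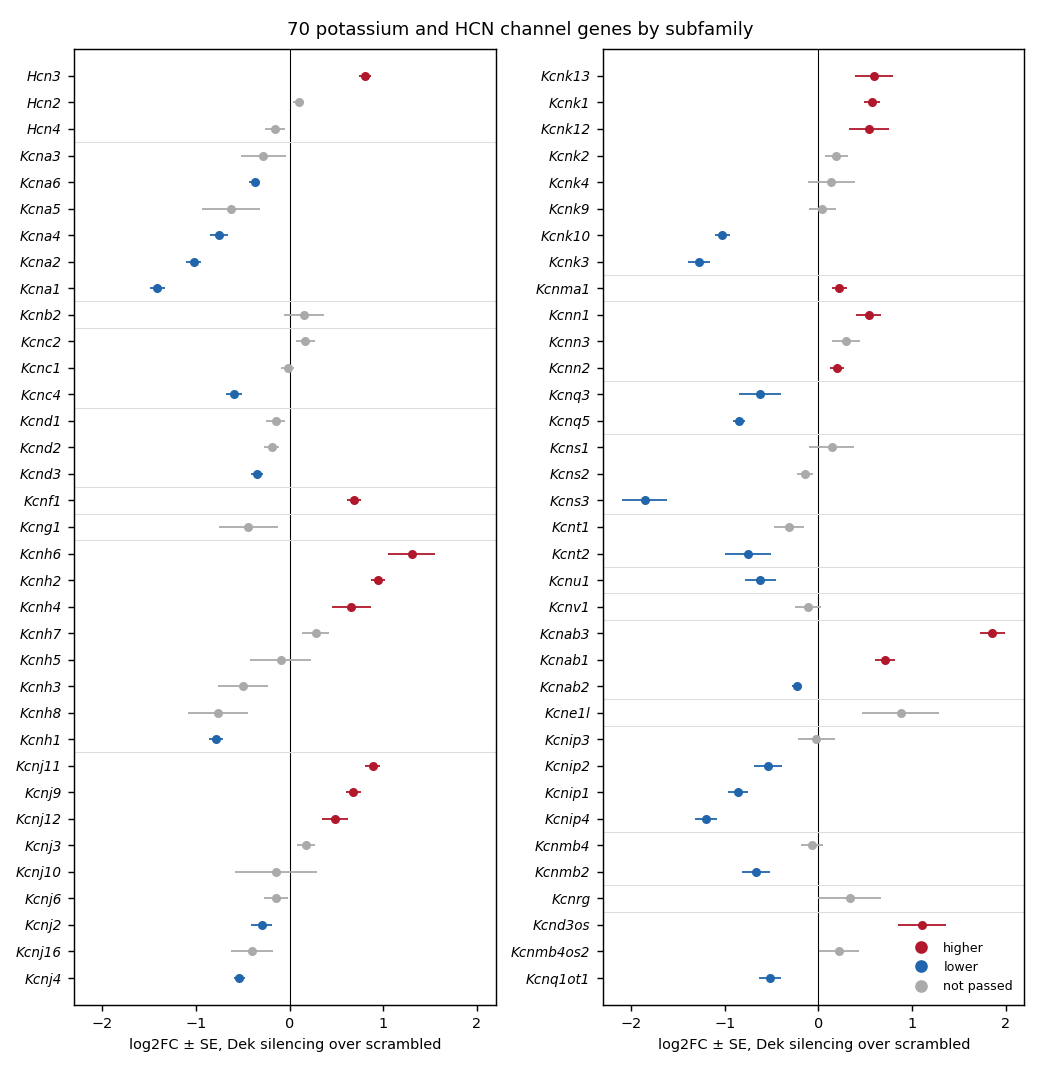
log2FC of Dek-silenced over scrambled wells with its SE (horizontal bars) for 70 of the channel genes, grouped by subfamily with pore subunits first, then accessory proteins and non-coding transcripts. Red points rose, blue points fell and grey points did not pass an edgeR adjusted p of 0.05; points lie between −1.86 (Kcns3) and 1.86 (Kcnab3).

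Among the HCN genes, Hcn3 rose, and Hcn2 and Hcn4 did not pass the test. Hcn3 (chr3:89146775-89160284 on GRCm38), whose channel opens slowly and depends little on cyclic nucleotides, stood at 115, 114 and 107 CPM in Dek-silenced wells, against 69.2, 60.4 and 60.9 CPM in scrambled wells (log2FC = 0.80, SE 0.07, adjusted p = 9.72e-07). The lowest silenced well lay above the highest scrambled well by more than the spread of either group, and the call held in all 15 alternatives, with log2FC between 0.76 and 0.90. In overexpressing wells Hcn3 was at 61.6, 65.9 and 52.0 CPM, against 61.0, 68.3 and 71.2 CPM in empty vector wells, and these overlapped. Exons of Hcn3 share 711 bases with Pklr on the opposite strand. Pklr averaged 1.62 CPM in silenced wells and 0.72 CPM in scrambled wells.

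Hcn2, the HCN gene with the highest level per length, was at 109.9, 114 and 110.2 CPM in silenced wells, against 109, 103 and 97.2 CPM in scrambled wells (log2FC = 0.10, SE 0.06, adjusted p = 0.178). Those groups just failed to overlap, yet the test was passed only where libraries were scaled by size alone (log2FC = 0.20, adjusted p = 0.013). Hcn4, the slow and strongly cyclic AMP-dependent subunit, was at 12.6, 11.9 and 13.1 CPM in silenced wells, against 13.1, 15.01 and 13.3 CPM in scrambled wells (−0.16, SE 0.11, adjusted p = 0.235). These wells just failed to overlap. Against the empty vector the silenced wells were lower in Hcn4 (log2FC = −0.42, SE 0.12, edgeR adjusted p = 0.00716).

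**Figure D3:**
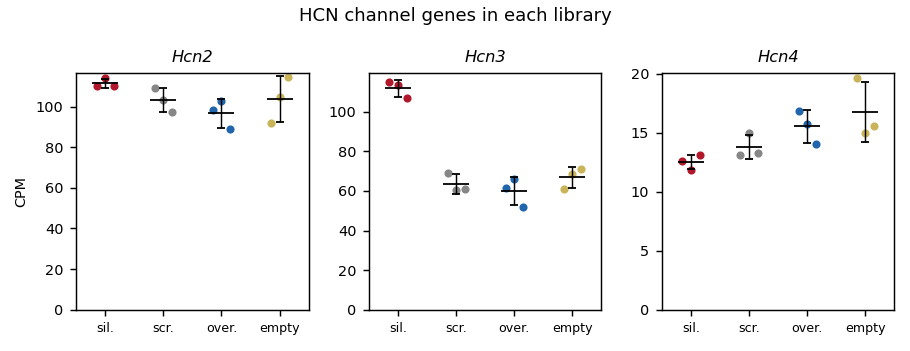
CPM of Hcn2, Hcn3 and Hcn4 in each well (dots) with the group mean and SD (bars), with Dek silencing (sil.), scrambled (scr.), Dek overexpression (over.) and empty vector (empty) from left to right. Hcn3 lies between 107 and 115 CPM in silenced wells and between 52.0 and 71.2 CPM in all others.

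Kcna channels sit at axon initial segments and nerve terminals and limit spike number. In this family 4 of 6 genes fell (66.7%, beside 28.5% of all genes tested) and 0 rose, with a median log2FC of −0.69. Kcna1 (chr6:126636463-126645801) was at 35.5, 34.8 and 39.4 CPM in silenced wells, against 106, 89.4 and 93.7 CPM in scrambled wells (log2FC = −1.42, SE 0.08, adjusted p = 5.2e-08), and Kcna2 (chr3:107090883-107115005), its usual partner in a channel, was at 35.6, 41.4 and 41.6 CPM, against 79.2, 83.9 and 76.2 CPM in scrambled wells (−1.03, SE 0.08). Every silenced well lay below every scrambled well in both genes. Kcna6 had 79.4, 79.4 and 72.2 CPM in silenced wells, against 97.9, 99.2 and 99.1 CPM in scrambled wells (−0.37, SE 0.06), a smaller gap that still exceeded the spread. Kcna4, which gives an inactivating current, also fell (−0.75, SE 0.10). Kcna3 (−0.28) and Kcna5 (−0.62), both low in all groups, had values below 0 and did not pass.

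Other delayed rectifier and A-type genes fell in part. Kcnb2, a delayed rectifier at 2.23 CPM in silenced wells and 1.99 CPM in scrambled wells, was at 0.15 and did not pass. Of the Kcnc genes, whose channels repolarize fast-spiking cells, Kcnc4 fell (−0.59, SE 0.08) and Kcnc1 (−0.02) and Kcnc2 (0.17) did not pass. Kcnd3 fell (−0.35, SE 0.06) among the A-type genes. Kcnd2, the most abundant of these per length, was at 105, 87.1 and 89.7 CPM in silenced wells, against 117, 101 and 100.3 CPM in scrambled wells (−0.19, SE 0.08, adjusted p = 0.0607), with overlap between the groups. It passed without silenced well 1 (log2FC = −0.27, adjusted p = 0.00717).

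Subunits that form no channel alone and modify Kcnb channels moved in both directions. Kcnf1, the most abundant of them per length, rose to 114, 101 and 125 CPM in silenced wells, against 71.9, 68.9 and 68.2 CPM in scrambled wells (log2FC = 0.69, SE 0.07, adjusted p = 1e-05), with no overlap. Kcns3 had the lowest log2FC of the 75 genes (−1.86, SE 0.24) at a low level, 1.02 CPM in silenced wells and 3.70 CPM in scrambled wells on average. Kcns1, Kcns2, Kcng1 and Kcnv1 did not pass, with log2FC from −0.44 to 0.14.

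The Kcnh family held changes in both directions. Kcnh2, the mouse counterpart of the hERG channel gene, whose current opposes repeated firing, was at 69.7, 79.5 and 75.8 CPM in silenced wells, against 40.6, 36.9 and 38.1 CPM in scrambled wells (log2FC = 0.95, SE 0.07, adjusted p = 5.57e-07). Kcnh6, of the same erg branch, rose at a low level (1.304, SE 0.25, 2.82 CPM in silenced wells and 1.13 CPM in scrambled wells), and Kcnh7, the remaining erg gene, had a log2FC of 0.28 that did not pass. Kcnh1, of the eag branch, fell to 33.3, 31.8 and 29.5 CPM in silenced wells, against 56.3, 55.3 and 50.2 CPM in scrambled wells (−0.79, SE 0.08, adjusted p = 3.48e-06). Neither Kcnh1 nor Kcnh2 overlapped between the groups, and Kcnh5, the other eag gene, was near the limit of 1 CPM (−0.09). Of the elk branch, Kcnh4 rose (0.66, SE 0.21), whereas Kcnh3 (−0.49) and Kcnh8 (−0.77) did not pass without the block.

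Of the Kcnq genes, whose channels carry the slow M-current that restrains excitability, Kcnq5 and Kcnq3 fell. Kcnq5 was at 38.5, 37.6 and 35.4 CPM in silenced wells, against 64.9, 67.7 and 65.8 CPM in scrambled wells (log2FC = −0.85, SE 0.06, adjusted p = 4.76e-07). Kcnq3 fell by less (−0.62, SE 0.23), at 2.43 CPM in silenced wells and 3.73 CPM in scrambled wells.

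Inward rectifiers also divided. Kcnj11, the pore of the ATP-sensitive channel, was at 42.4, 46.2 and 41.6 CPM in silenced wells, against 23.3, 21.7 and 24.6 CPM in scrambled wells (log2FC = 0.89, SE 0.08, adjusted p = 2.31e-06). Kcnj9, a GIRK subunit, rose to 54.0, 58.2 and 55.5 CPM in silenced wells, against 31.7, 37.8 and 34.2 CPM in scrambled wells (0.68, SE 0.08, adjusted p = 1.66e-05), and the groups stood clear of each other in both genes. Its GIRK partner Kcnj3 was at 155, 122 and 125 CPM, against 128, 113 and 111 CPM in scrambled wells (0.18, SE 0.09, adjusted p = 0.139), with overlap, and Kcnj6 was at −0.15 without passing. Of the strong rectifiers, Kcnj4 had 96.8, 99.6 and 106 CPM in silenced wells, against 143, 151 and 142 CPM in scrambled wells (−0.54, SE 0.06, adjusted p = 1.02e-05), Kcnj2 fell (−0.30, SE 0.12) and Kcnj12 rose (0.48, SE 0.14).

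Kcnj10, the main inward rectifier of astrocytes, did not pass (−0.14, SE 0.44) and had the highest SE of its family. It was at 17.5, 40.7 and 35.5 CPM in Dek-silenced wells, against 21.7, 36.5 and 44.8 CPM in scrambled wells, and lowest in well 1 of both groups, as was the astrocyte marker sum. In overexpressing wells it was at 9.26, 8.41 and 11.3 CPM, against 13.2, 8.36 and 9.28 CPM in empty vector wells. All 6 hairpin wells therefore lay above all 6 vector wells. The part of astrocyte number in this was not tested.

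Tandem-pore channels, which carry the background leak, gave 3 rises and 2 falls among 8 (37.5% and 25%, beside 26.2% and 28.5% of all genes tested). Kcnk3, an acid-sensitive leak channel, was at 16.3, 13.7 and 13.6 CPM in silenced wells, against 40.8, 31.0 and 32.7 CPM in scrambled wells (log2FC = −1.28, SE 0.12, adjusted p = 2.87e-06). Kcnk10, a lipid- and stretch-sensitive leak channel, had 16.0, 14.9 and 14.8 CPM in silenced wells, against 31.1, 30.8 and 30.2 CPM in scrambled wells (−1.03, SE 0.08, adjusted p = 6.35e-07). Neither gene overlapped between the groups. The closest relatives of these, Kcnk9 (0.04) and Kcnk2 (0.19), did not pass, and Kcnk1 (0.57, SE 0.08), Kcnk12 (0.54, SE 0.21) and Kcnk13 (0.59, SE 0.20) rose.

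**Figure D4:**
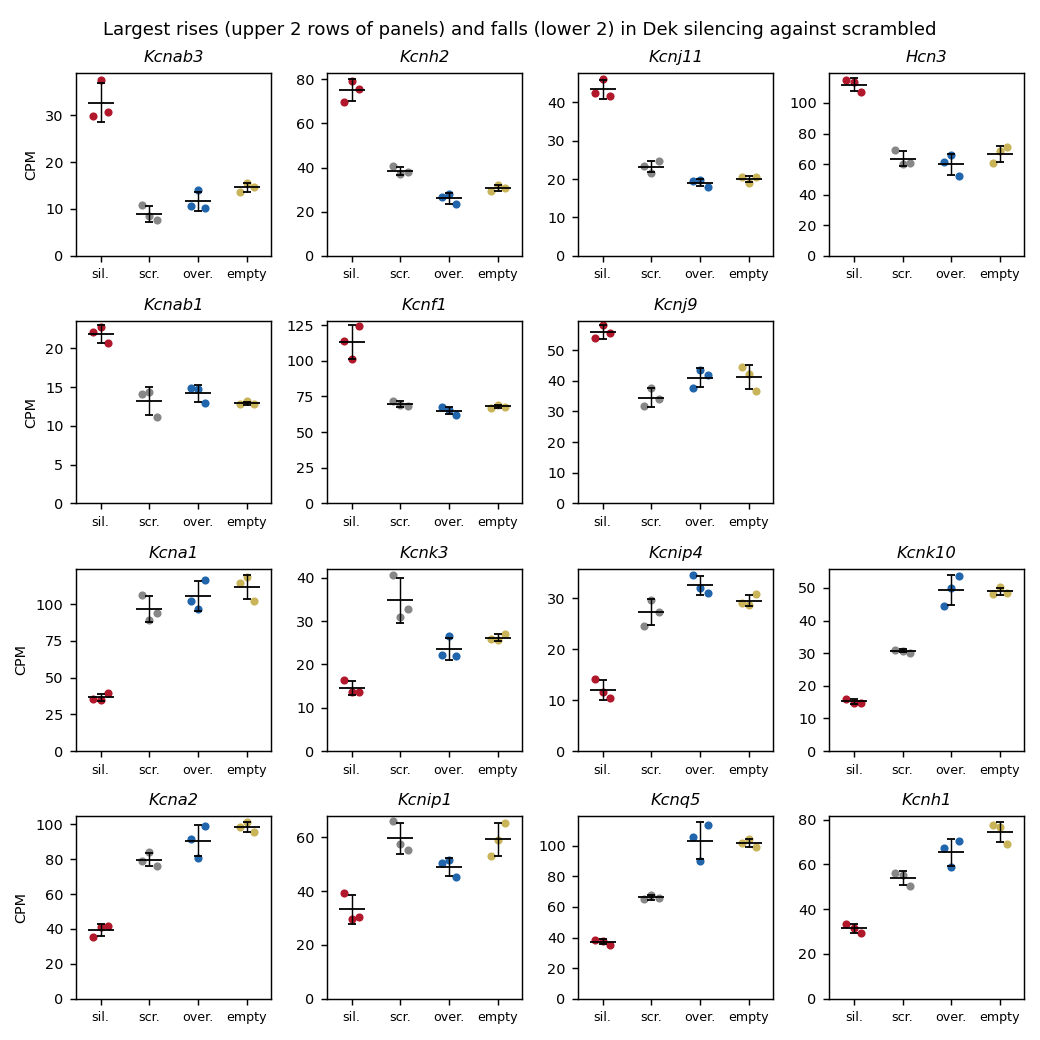
CPM in each well (dots) with group mean and SD (bars) for 7 of the largest rises and the 8 largest falls in Dek-silenced against scrambled wells, among channel genes with a mean of at least 5 CPM over those libraries; groups run from Dek silencing (sil.) through scrambled (scr.) and overexpression (over.) to empty vector (empty). In all 15 genes the 3 silenced wells lie clear of the 3 scrambled wells, and none of these genes passed between overexpression and empty vector.

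Of the channels opened by calcium, 3 of 4 pore genes rose, beside 26.2% of all genes tested. Kcnma1, the pore of the large-conductance (BK) channel, was at 27.3, 25.8 and 24.8 CPM in silenced wells, against 23.0, 21.9 and 21.1 CPM in scrambled wells (log2FC = 0.22, SE 0.08, adjusted p = 0.0342). The small-conductance (SK) genes Kcnn1 (0.54, SE 0.13) and Kcnn2 (0.19, SE 0.08) rose and Kcnn3 was at 0.30 without passing. The calls of Kcnma1 and Kcnn2 were lost in 6 and 7 alternatives. Against the empty vector, silenced wells were lower in Kcnma1 (log2FC = −0.81). Kcnmb2, an accessory subunit of the BK channel, fell (−0.67, SE 0.15), and Kcnmb4, the neuronal one, was at −0.07 and did not pass. Of the sodium-activated channels, Kcnt2 fell (−0.76, SE 0.25) and Kcnt1 was at −0.31. Kcnu1, a channel gene best known from mouse sperm, fell at a low level (−0.62, SE 0.17).

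The accessory proteins held the largest rise of all. Kcnab3 (chr11:69326258-69333041), a beta subunit of Kcna channels, was at 29.9, 37.5 and 30.8 CPM in Dek-silenced wells, against 10.8, 8.40 and 7.58 CPM in scrambled wells (log2FC = 1.86, SE 0.14, adjusted p = 7.37e-07), a 3.63-fold difference. Its relative Kcnab1 rose to 22.2, 22.8 and 20.6 CPM, against 14.1, 14.4 and 11.2 CPM in scrambled wells (0.71, SE 0.11, adjusted p = 0.000175). Kcnab2, the most abundant of the 3 per length, had 128, 125 and 129 CPM in silenced wells, against 151, 150.1 and 141 CPM in scrambled wells (−0.23, SE 0.05, adjusted p = 0.00309). The silenced wells were thus above in Kcnab1 and Kcnab3 and below in Kcnab2, without overlap in any of the 3, while the pore genes Kcna1, Kcna2, Kcna4 and Kcna6 fell.

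Of the Kcnip genes, whose calcium-binding products join Kcnd channels, 3 of 4 fell (75%, beside 28.5% of all genes tested) and 0 rose. Kcnip4 was at 14.1, 11.5 and 10.3 CPM in silenced wells, against 24.6, 29.7 and 27.3 CPM in scrambled wells (log2FC = −1.20, SE 0.12, adjusted p = 4.95e-06). Kcnip1 was at 39.5, 29.8 and 30.4 CPM in silenced wells, against 66.0, 57.4 and 55.3 CPM in scrambled wells (−0.86, SE 0.11, adjusted p = 6.57e-05), and neither overlapped. Kcnip2 fell (−0.54, SE 0.15) and Kcnip3 was at −0.02. Exons of Kcnip4 share 168 bases with a gene on the opposite strand whose groups averaged at most 0.43 CPM. Kcne1l (0.88, SE 0.41) and Kcnrg (0.33, SE 0.34) did not pass.

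Among the non-coding transcripts, Kcnq1ot1, the imprinted antisense RNA of the Kcnq1 locus, fell (−0.52, SE 0.12), Kcnd3os rose (1.10, SE 0.26) and Kcnmb4os2 did not pass (0.22, SE 0.22). Kcnd3os shares 165 exonic bases with Kcnd3 on the opposite strand, and strand use in the counting is not given in the sources used here, so reads from that stretch may be counted for either. Kcnd3os had 2.49 CPM in silenced wells and 1.15 CPM in scrambled wells, and Kcnd3 104 CPM and 131 CPM.

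Proteins that bind, anchor or traffic these channels were taken as a list of 29 genes chosen by known role. Of 27 tested, 4 rose and 12 fell in Dek-silenced against scrambled wells, 59.3% of the list beside 54.7% of all genes, with a median log2FC of −0.11. Akap5, a scaffold that brings kinases and phosphatases to Kcnq channels (log2FC = −1.86, SE 0.09, adjusted p = 1.58e-08), Adam22, a partner of Lgi1 at Kcna channels (−1.41, SE 0.07, adjusted p = 1.46e-08), Snx27, a sorting protein of GIRK channels (−0.61, SE 0.06, adjusted p = 2.24e-06), and Ank2, an ankyrin (−0.59, SE 0.05, adjusted p = 1.41e-06), had the smallest p among the falls. The 4 rises were Abcc9, a regulatory subunit of ATP-sensitive channels (1.36, SE 0.38), Lrrc26, a BK accessory protein (0.77, SE 0.26), Pex5l, the HCN trafficking protein TRIP8b (0.26, SE 0.09), and Cntnap2, which clusters Kcna channels along axons (0.23, SE 0.08). Abcc9 was at a low level, 1.24, 1.58 and 1.01 CPM in silenced wells against 0.68, 0.48 and 0.30 CPM in scrambled wells. Lrrc26 was also low, at 1.79, 2.67 and 2.29 CPM against 1.14, 1.55 and 1.24 CPM. With correction for GC content and length, 11 rose and 11 fell, while over all 13631 genes tested 4197 rose and 3608 fell. Leaving out single wells gave between 1 and 3 rises, with 2 without silenced well 2 or 3 or scrambled well 2, and 1 without scrambled well 3. Of 26 partners tested in overexpressing against empty vector wells 0 passed, beside 0.0071% of all genes. Between scrambled and empty vector wells 3 were higher and 10 lower, 50% beside 43.1% of all genes (21.3% higher and 21.8% lower). The difference between the responses passed for 12 of 27, 1 more positive and 11 more negative. That is 44.4%, near the 43% of all genes (20.4% more positive and 22.7% more negative).

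Of the 42 calls among the channel genes, 31 held in the same direction in each alternative that tested them with the scrambled control, 13 rises and 18 falls. Of these 31, 27 were tested in 15 alternatives, and Kcnh6, Kcns3, Kcnd3os and Kcnq1ot1 in 14. Kcnab2 fell short only where libraries were scaled by size alone (log2FC = −0.13, adjusted p = 0.0533), and Kcnj12 only without scrambled well 2 (0.40, adjusted p = 0.0553). The DESeq2 Wald test ended the calls of Kcnh4, Kcnj2, Kcnk12, Kcnk13, Kcnma1, Kcnn2 and Kcnq3 (adjusted p between 0.0523 and 0.127), and the correction for GC content and length those of Kcnj2, Kcnk12, Kcnk13, Kcnq3 and Kcnt2 (0.0501 to 0.265). Without a filter on low counts Kcnj2, Kcnk12, Kcnma1 and Kcnn2 did not pass (0.0511 to 0.0656), limma-voom did not call Kcnk12 and Kcnn2, and scaling by size alone also ended Kcnj2 and Kcnq3. Kcnj2 was lost as well with DESeq2 size factors and with a minimum of 5 CPM. Dropping single wells ended calls as well. Kcnh4 was lost without silenced well 2 or scrambled well 2 (adjusted p of 0.0656 and 0.073) and Kcnt2 without silenced well 3 or scrambled well 1 (0.0844 and 0.108). Kcnip2, whose wells overlapped between the groups, was lost without silenced well 1 or 3 or scrambled well 2 or 3 (adjusted p between 0.0518 and 0.067), and Kcnma1 without silenced well 1 or 2 or scrambled well 2 or 3 (0.0731 to 0.132). The same 4 wells decided Kcnk13 (0.0503 to 0.106) and Kcnn2 (0.0969 to 0.157). Kcnq3 was lost without silenced well 1 or scrambled well 2 or 3 (0.0774 to 0.127), Kcnj2 without any 1 of 5 wells, silenced well 1 being the exception (0.0681 to 0.172), and Kcnk12 likewise (0.0582 to 0.234).

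Base composition was summarised beside these calls, with no test. The median GC content of the transcript was 57.0% for the 19 channel genes that rose and 47.9% for the 22 that fell and had a transcript in the annotation, beside 52.0% and 49.1% over all genes that rose and fell. With correction for GC content and length, 21 channel genes rose and 19 fell. Over all 13631 genes tested 4197 then rose and 3608 fell. Rises thus made up 53.8% of all called genes, against 47.9% without the correction. Median length of the 3′ UTR was 1229.5 bases in the channel genes that rose and 2324 bases in those that fell. The channel genes that did not pass had 2175.5 bases. Over all genes the medians were 1235 bases in those that rose, 1434.5 in those that fell and 1110 in those that did not pass.

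Some channel transcripts carry in their 3′ UTR the 7 bases AAGAGGA, which lie within the Dek sequence that the silencing hairpin targets. This heptamer was chosen with earlier results of these data known, so its count in genes that fell is a description. Searched on the transcript strand of the longest annotated 3′ UTR, it was present in 18 of 72 channel genes (25.0%), beside 16% of 13426 genes tested with a 3′ UTR. It occurred in 7 of 22 that fell (31.8%), 2 of 18 that rose (11.1%) and 9 of 32 that did not pass (28.1%); over all genes the shares were 23.8%, 10.5% and 14%. The sites below are shown because they lie in genes that changed, 1 per gene, with the heptamer in capitals and 11 bases on either side (GENCODE transcripts on GRCm38, written 5′ to 3′).
Kcna1, fell, chr6:126641584-126641612 (- strand): aaaagaaaagaAAGAGGAttttcttataa
Kcna2, fell, chr3:107105814-107105842 (+ strand): acaggtttccaAAGAGGAgagtcacccat
Kcnd3, fell, chr3:105673272-105673300 (+ strand): gtaaccaccatAAGAGGAacaggaaaaac
Kcnip4, fell, chr5:48389714-48389742 (- strand): atacaagaaccAAGAGGAtacaggaggag
Kcnq5, fell, chr1:21399580-21399608 (- strand): acgggctgaggAAGAGGAgggagctgaca
Kcnj9, rose, chr1:172322769-172322797 (- strand): ggaggtggaagAAGAGGAggcaggcagtg
Kcnma1, rose, chr14:23294000-23294028 (- strand): gggacagaaagAAGAGGAgagatgagaat
Kcna2 held 4 such sites and the others shown held 1. No binding was measured, and a match is no evidence of it.

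Neither control construct targets Dek, which did not pass between them (log2FC = −0.10, edgeR adjusted p = 0.23), so their comparison shows how far channel genes differ between the experiments. Of the 75 genes, 14 were higher and 30 lower in scrambled wells. That is 58.7% of the 75 genes, beside 43.1% of 14096 genes tested, with 18.7% of channel genes higher beside 21.3% of all genes, and 40% lower beside 21.8%. The median log2FC was −0.22 over the channel genes and 0.01 over all genes. Promoter, hairpin and experiment cannot be told apart in this comparison. Pore genes made up 29 of the 30 lower, among them Kcnt2 (log2FC = −1.57, SE 0.21), Kcna3 (−1.45, SE 0.18), Kcnj2 (−1.26, SE 0.08), Kcng1 (−1.23, SE 0.25), Kcns1 (−1.16, SE 0.21) and Kcnma1 (−1.05, SE 0.07). The highest were Kcnj10 (1.73, SE 0.36), Kcns3 (0.87, SE 0.23) and Kcne1l (0.84, SE 0.21). Kcnj10 lost its call without empty vector well 2 or 3 (adjusted p of 0.052 and 0.0711). The correction for GC content and length left 11 higher and 26 lower, beside 2454 higher and 2227 lower of 13523 genes tested. In all, 33 of the 44 calls held in every alternative. Kcna2, Kcne1l, Kcnh7, Kcnj4 and Kcnk3 were lost only with the GC correction or, for Kcne1l, also with all libraries in 1 fit. Besides Kcnj10, wells decided Kcna1 and Kcnd2 (without scrambled well 2 or 3 or empty vector well 2, and for Kcna1 also empty vector well 1), Kcnj9 (scrambled well 1 or 3 or empty vector well 1 or 2) and Kcnj11 (each well but scrambled well 2), with adjusted p between 0.0559 and 0.173.

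Set against the empty vector, Dek-silenced wells had 19 channel genes higher and 40 lower, 78.7% of 75 beside 67.4% of 14292 genes tested (34% higher and 33.5% lower). These values share the silenced wells with the comparison against scrambled wells and are given beside it, not as a repeat of it. Of the 19 genes above scrambled, 15 were also above the empty vector, 3, Kcnh4 and Kcnn1 among them, did not pass and 1, Kcnma1, was below. Of the 23 below scrambled, 21 were below the empty vector too and 2 (Kcnab2 and Kcnip2) did not pass. Kcnma1 had 27.3, 25.8 and 24.8 CPM in silenced wells, against 47.0, 45.6 and 44.0 CPM in empty vector wells (log2FC = −0.81, SE 0.07, adjusted p = 5.24e-07). Overexpressing wells held 45.8, 39.9 and 50.1 CPM. Both hairpin groups thus lay below both vector groups in this gene, with silenced slightly above scrambled.

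Several of the changes had like values against both controls. The 2 values of a gene differ by about its difference between the controls, so like values follow where the controls are alike. They are no separate support. Hcn3 was at 0.80 against scrambled and 0.75 against the empty vector, Kcnab1 at 0.71 and 0.76, Kcnf1 at 0.69 and 0.74, Kcnk1 at 0.57 and 0.62, Kcnip1 at −0.86 and −0.84, and Kcnip4 at −1.20 and −1.30 (log2FC). In these 6 genes the 2 controls did not differ by the test. The 6 were picked for like values: in Kcnd3os (1.10 and 1.88), Kcnk13 (0.59 and 0.86) and Kcnmb2 (−0.67 and −0.94) the controls did not differ by the test either. Where the controls differed, the size moved with that difference. Kcnab3 was at 1.86 against scrambled and 1.16 against the empty vector, Kcnk3 at −1.28 and −0.85, Kcnq5 at −0.85 and −1.45, Kcnk10 at −1.03 and −1.68, and Kcnj4 at −0.54 and −0.17.

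**Figure D5:**
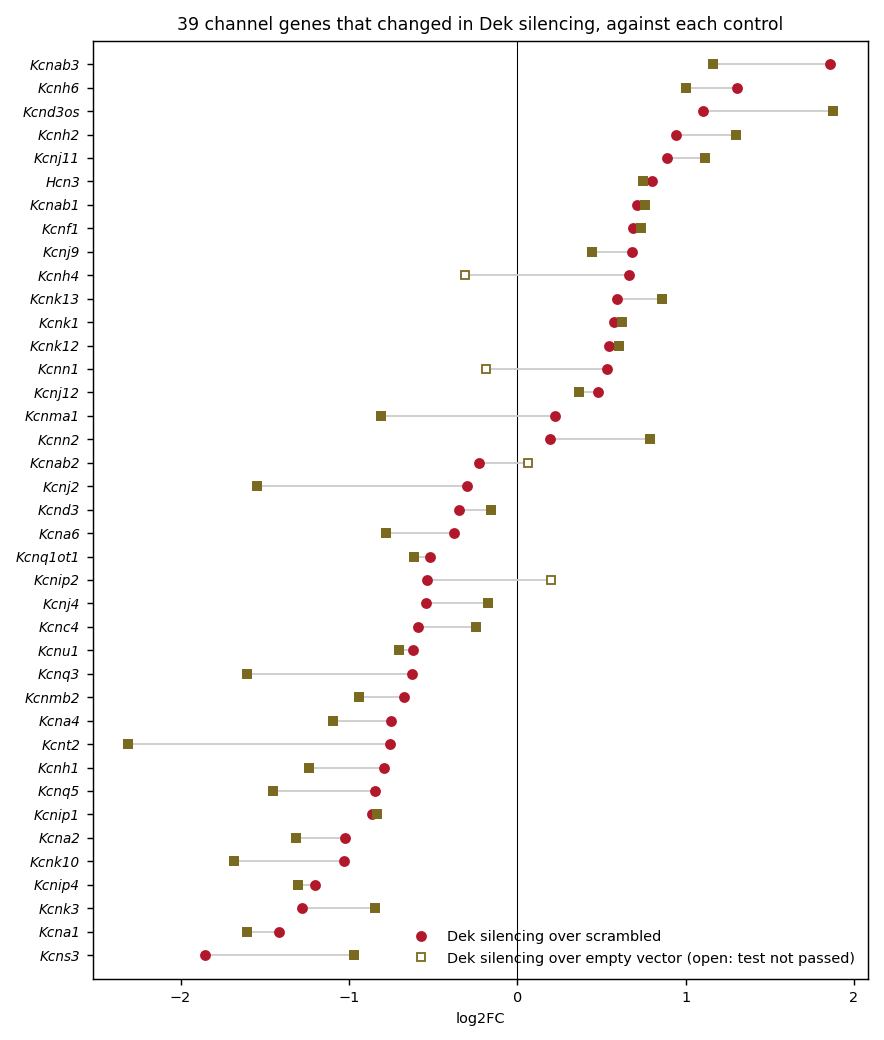
log2FC of Dek-silenced wells over scrambled wells (circles) and over empty vector wells (squares, open where the test was not passed) for 39 channel genes that changed against scrambled, joined by a line per gene and sorted by the circles. Kcnma1 passes on opposite sides of 0, and Kcnh4, Kcnn1, Kcnab2 and Kcnip2 have an open square across 0 from their circle.

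Overexpression of Dek was compared with the empty vector to ask whether more Dek changes the same genes. Of 74 channel genes tested 0 were called (edgeR adjusted p < 0.05; DESeq2 and limma-voom also called 0), beside 0.0071% of 14089 genes, which is Dek itself. Kcnd3os did not reach the count minimum and was not tested. At an unadjusted p below 0.05 there were 8 genes, 2 higher and 6 lower (10.8%), beside 6.6% of all genes, 2.92% higher and 3.68% lower. Every log2FC lay between −0.33 and 0.37, with an SE of 0.05 to 0.30, so changes as large as those of Kcna1, Kcnk3 or Kcnab3 in silencing were not seen in either direction.

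Kcnv1, a modifier of Kcnb channels, had the smallest p, with 18.8, 19.4 and 17.3 CPM in overexpressing wells, against 15.2, 15.9 and 12.1 CPM in empty vector wells (log2FC = 0.37, SE 0.11, edgeR adjusted p = 0.646). Kcnip1 was next, at 50.5, 51.6 and 45.2 CPM in overexpressing wells, against 53.1, 59.1 and 65.4 CPM in empty vector wells (−0.27, SE 0.08, edgeR adjusted p = 0.669). Kcnh2 had 26.6, 28.1 and 23.3 CPM in overexpressing wells, against 29.2, 31.9 and 30.7 CPM in empty vector wells (−0.23, SE 0.09, edgeR adjusted p = 0.688). These 3 did not overlap between the groups, and neither did 11.7% of all genes. Kcnab3 had 10.7, 13.98 and 10.2 CPM in overexpressing wells, against 13.7, 15.5 and 14.8 CPM in empty vector wells (−0.33, SE 0.12, edgeR adjusted p = 0.688), with overlap. Among the HCN genes, log2FC was −0.10 for Hcn2, −0.16 for Hcn3 and −0.10 for Hcn4, and none passed.

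The difference between the responses to silencing and to overexpression was itself tested in all 12 libraries. It passed for 39 of 75 channel genes, 17 with a more positive response to silencing and 22 with a more negative one, 52% beside 43% of 14604 genes tested (20.4% more positive and 22.7% more negative). Of the 19 genes that rose in silencing 16 passed in the same direction, Kcnk12, Kcnma1 and Kcnn2 being the exceptions. Of the 23 that fell 21 passed, Kcnq3 and Kcnt2 being the exceptions. These genes were chosen from the same hairpin wells, and every overexpression log2FC lay between −0.33 and 0.37. Their direction here is thus largely set in advance and is no separate support. Kcnab3 had the most positive difference (log2FC = 2.21, SE 0.20, adjusted p = 9.09e-08), followed among genes with a mean above 5 CPM by Kcnh2 (1.20, SE 0.11), Hcn3 (0.98, SE 0.12) and Kcnj11 (0.98, SE 0.11). Kcns3, at a low level, had the most negative (−2.07, SE 0.36), followed above 5 CPM by Kcnip4 (−1.33, SE 0.14), Kcna1 (−1.32, SE 0.12), Kcnk3 (−1.11, SE 0.15) and Kcnk10 (−1.03, SE 0.11). Kcnj3 (0.36, SE 0.14) and Kcnv1 (−0.46, SE 0.18) passed here and in neither response alone. Neither held throughout: Kcnj3 was lost without silenced well 1, scrambled well 2 or 3, overexpressing well 1 or 2, or empty vector well 2 or 3 (adjusted p between 0.0937 and 0.126), and Kcnv1 without silenced well 1, scrambled well 2 or 3, overexpressing well 1 or 2, or empty vector well 3 (0.0765 to 0.128). Of the other 37 genes, 31 held in every alternative. The exceptions, each lost without at least 4 different single wells, were Kcnab2 (adjusted p up to 0.103 without a well), Kcnh4 (0.107), Kcnh6 (0.103), Kcnj12 (0.0786), Kcnj2 (0.0751) and Kcnk13 (0.0899). Hcn2 (0.21) and Hcn4 (−0.03) did not pass.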

How the data were processed

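RNA-seq was done on 12 wells of cultured mouse EC neurons (TruSeq RNA kit, 200 ng of RNA, NextSeq 500). The authors deposited 1 table of estimated counts per gene, not normalized, in which 38.6% of values are not whole. Their processing notes name Salmon, DESeq2 and mm10 without versions, and the methods also describe trimming and alignment to mm10. Estimated counts share reads among transcripts, so paralogs may trade counts, and strand use is not given in the sources used here. The 9 genes without a symbol could not be members and stayed in the fits.

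Counts were rounded, filtered with filterByExpr, scaled by TMM and tested with edgeR 4.0.16 (robust glmQLFit and glmQLFTest, R 4.3.3), 3 wells against 3, or all 12 libraries for the difference between responses. P-values were adjusted by Benjamini-Hochberg over all genes tested, and calls use 0.05. DESeq2 1.42.0, limma-voom (limma 3.58.1), other scalings, filters, GC and length offsets, all libraries in 1 fit and leaving out each well were alternatives. Displayed CPM use TMM over 12 libraries. Exon lengths, transcripts and 3′ UTRs came from GENCODE on GRCm38, and gene spans from RefSeq on the same build.

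Members and lists were chosen with earlier results of these data known. Values in every well are given for the Hcn genes, the 8 largest called rises and falls with a mean of at least 5 CPM over the 6 libraries compared, the 6 highest genes per length, the 4 smallest p in overexpression and any member that passed in opposite directions against the 2 controls. Results for some genes are not reported here. Kcnj10 was added after its values were seen. In silencing against scrambled, same-numbered wells deviated together in 3 of 3 pairs (correlation of deviations 0.147 to 0.465), so the block is printed there. On simulated counts with known changes, the silencing fit recovered 41.8% of 1.3-fold, 79.1% of 2-fold and 100% of 4-fold changes among 14082 genes. Those counts held 67, 67 and 66 changed genes, far fewer than were called in the data. The shares therefore do not describe recovery in the actual fit.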

Additional observations from a re-analysis of the deposited data

How the results depend on the processing

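Of the alternatives, only those that move a count by over 1.5 times, turn a sign or add the replicate block are given by value. Requiring a log2FC beyond 1 left 3 higher and 6 lower in silencing against scrambled, 1 higher and 8 lower in scrambled against empty vector, and 4 higher and 5 lower in the difference. The shares of all genes beyond that limit are not given here, so these counts cannot be set against the transcriptome. With the empty vector as control, 40 channel genes were lower in silenced wells, Kcnab2 (0.065) and Kcnip2 (0.20) were above 0, and Kcnj3 (−0.27), Kcnma1 (−0.81), Kcnh4 (−0.31) and Kcnn1 (−0.18) below 0. Correction for GC content and length gave Kcnv1 0.014 in silencing. Of the channel partners, an added list, 7 rose with library size scaling, 2 with a minimum of 5 CPM and 11 with the GC correction, and 1 to 3 with a well left out. Without single wells 13 to 19 channel genes rose and 21 to 24 fell in silencing. The replicate block gave 22 higher and 27 lower in silencing, ended none of the 42 calls, and gave 13 higher and 27 lower between the controls, 0 in overexpression, and 17 higher and 21 lower in the difference. In the overexpression comparison same-numbered wells correlated at −0.135 to 0.0371 and between the controls at −0.451 to −0.0992, so the numbers there only name the wells. For single genes, leaving out a well kept 866 results, weakened 99 and made 1 stronger, and the other settings kept 1037, weakened 58, made 9 stronger and turned 7. The partner alternatives were chosen after seeing the data.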

Other observations

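Low levels limit several values: 17 of the 75 channel genes had a mean under 5 CPM over all libraries. In the simulation 1.3-fold changes were recovered in 41.8% of cases in silencing, 56.7% in overexpression and 20.9% for the difference. Only 67 genes were changed 1.3-fold there, 67 2-fold and 66 4-fold, whereas 54.7% of genes were called in the silencing data. These shares therefore neither give the recovery of the actual fits nor rank the comparisons. A gene that did not pass may still have changed by 1.3-fold. The silenced and the scrambled wells differ from the vector wells in promoter, hairpin and experiment at once, and these cannot be told apart. Intervals were not computed for single libraries, and counting of paralogs was not examined.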
